A study of Oryza sativa with 2 samples.

Results

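The gene identifiers OrsaiCp01, OrsaiCp03, OrsaiCp04, OrsaiCp05 and OrsaiCp06, of a rice series taken as plastid, were followed through 2 libraries of total RNA. They are 5 of 65 OrsaiCp identifiers and of 57343 gene identifiers in all. They were chosen by identifier, not by a measured value, but with earlier results of these data known. Their working assignment, from number order and length, is psbA, psbK, psbI, psbD and psbC, in that order. Both libraries came from Minghui 63 rice, a parental line of a widely grown hybrid, at 2 weeks of age and collected at 8:00. Seeds had been soaked for 72 h at 37 °C, and plants then grew in days of 14 h (32 °C) and nights of 10 h (28 °C). The sample label says seedling and the extraction protocol says leaves, and no mutant, transgene or treatment is named. The libraries form 1 group, so no condition could be compared. Nothing says that they came from separate plants, so differences between them may be technical, and the p-values set them against counting error alone, without any spread between libraries.

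Photosystem II is the chlorophyll-protein complex of the thylakoid membrane that uses light to draw electrons from water. The product of psbA is the reaction centre protein that is damaged by light and replaced throughout the day, and that of psbD is its partner in the reaction centre. The psbC product is a chlorophyll-binding inner antenna protein, and psbK and psbI encode small membrane subunits of the core. In grass plastids psbK, psbI, psbD and psbC lie together and are copied as long shared transcripts, whereas psbA is a separate transcription unit. All these genes are encoded in the plastid itself, and the plastid messages largely lack the long poly(A) tails of nuclear messages.

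The assignment was set against the plastid genes of a japonica rice reference table (assembly ASM3414082v1), which holds 0 of the identifiers themselves. The deposited length of OrsaiCp03 is 186 bases, which psbK alone has among the plastid protein-coding genes of that table. The length of OrsaiCp06, 1422 bases, belongs to psbC alone. OrsaiCp04 has 111 bases, a length that psbI shares with psaI, a photosystem I gene. OrsaiCp01 and OrsaiCp05 both have 1062 bases, the length of psbA and of psbD, so length cannot say which is which. The 5 symbols stand along the reference plastid in the same order as the identifier numbers. OrsaiCp02, whose number lies between the first pair of members, has the 1536 bases of matK, which lies between psbA and psbK in the table. No mitochondrial protein-coding gene of the table has any of the 5 lengths. Length therefore names 2 members by itself and leaves 2 symbols for each of the other 3, for which the names rest on order as well. All the names are candidates, and sequence was not examined.

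OrsaiCp01, the psbA candidate, stood far above every other identifier. It had 7380666 counts in library 1 and 7848796 in library 2. Its FPKM, the count per kilobase of length and per 1000000 gene counts, was 384035 in library 1 and 393118 in library 2, or 388577 ± 6422 (SD, n = 2). The next highest identifier was OrsaiCp36, no member and without a plastid gene of its length in the table. A mitochondrial gene of the table, orf160, has that length, 483 bases. Per length, OrsaiCp01 exceeded OrsaiCp36 by 15.5-fold in library 1 (95% exact binomial interval 15.4 to 15.6) and by 15.7-fold in library 2 (15.6 to 15.8). The counts of OrsaiCp01 were 4.56 and 4.81 times those of all other 64 OrsaiCp identifiers together. It made up 82.0% and 82.8% of the OrsaiCp counts. The whole nuclear MH series, summed, had 1.16 and 1.13 times the counts of this single identifier.

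The small subunit candidates came next per length. OrsaiCp03, the psbK candidate, was counted 52132 times in library 1 and 51170 times in library 2. Its FPKM was 15488 and 14633, or 15061 ± 604 (SD, n = 2), rank 6 of the 64 OrsaiCp identifiers that have an FPKM. OrsaiCp04, the psbI candidate, had 19531 and 19296 counts, the fewest of the 5. Its FPKM was 9723 and 9247, or 9485 ± 337 (SD, n = 2), and it ranked directly below OrsaiCp03 among OrsaiCp identifiers. The FPKM of OrsaiCp03 was above that of OrsaiCp04 in both libraries, without overlap. These models are about as long as a 150-base read or shorter, so a fragment can overlap them and reach beyond both ends.

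The reaction centre partner and the inner antenna were the lowest members. OrsaiCp06, the psbC candidate, was counted 80703 times in library 1 and 81296 times in library 2, the most after OrsaiCp01. Its FPKM was 3136 and 3041, or 3089 ± 67.3 (SD, n = 2), rank 13. OrsaiCp05, the psbD candidate, had 53225 and 57285 counts. Its FPKM was 2769 and 2869, or 2819 ± 70.5 (SD, n = 2), rank 16. The FPKM ranges of OrsaiCp05 and OrsaiCp06 did not overlap, although they lay close together.

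**Figure D1:**
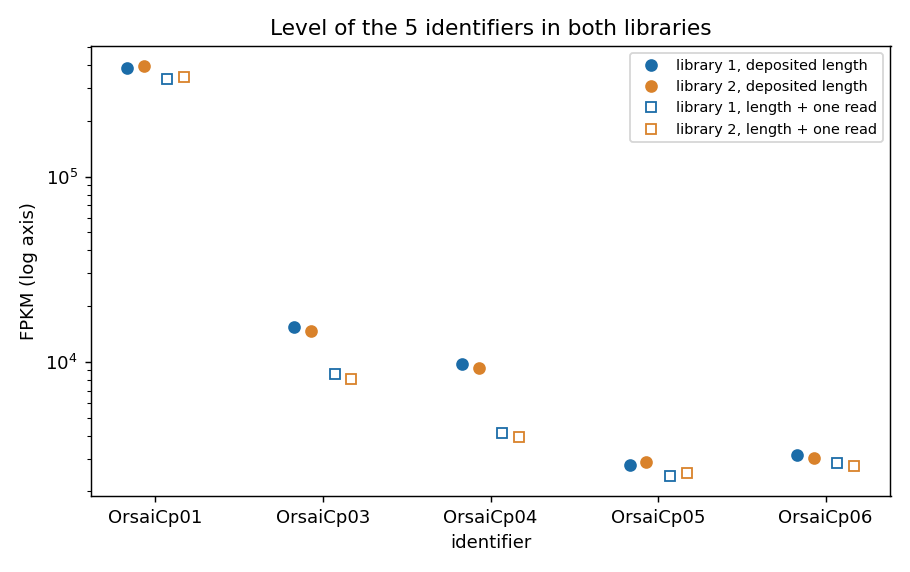
FPKM on a log axis for each member, with library 1 in blue and library 2 in orange; filled circles use the deposited length and open squares the length plus one 150-base read. OrsaiCp01 lies far above the others on both scales, and the shift between scales is greatest for OrsaiCp04, from a mean of 9485 to 4034.

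Among the 4 lower members, the length used in the denominator set much of the distance between the short and the long models. With 150 bases added to each length, the mean level was 8337 ± 334 for OrsaiCp03 and 4034 ± 143 for OrsaiCp04 (SD, n = 2). On that scale OrsaiCp06 was at 2794 ± 60.8 and OrsaiCp05 at 2470 ± 61.8 (SD, n = 2). The order was the same on both per-length scales. Fragments read as pairs can be longer than a read. No addition above 150 bases was tried, so whether the order holds at fragment length was not tested. By counts without a length, OrsaiCp06 was above OrsaiCp05 and OrsaiCp03, and OrsaiCp04 was lowest. The gap between OrsaiCp03 and OrsaiCp06 per length was 4.88 ± 0.0894 (SD, n = 2 libraries) with the deposited lengths. With the read length added it was 3.02 in library 1 and 2.94 in library 2.

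Neighbours in the working assignment were set side by side per length. OrsaiCp05 stood at 0.883 of OrsaiCp06 in library 1 (95% interval 0.873 to 0.893) and at 0.944 in library 2 (0.933 to 0.954), so the psbD and psbC candidates were nearly level. In the reference table psbD and psbC overlap at their ends. Fragments that lie on 2 genes are counted as ambiguous by default in HTSeq, and the setting used was not given in the sources used here. All ambiguous entries of a library came to 10460 and 10430, which is 7.81% and 7.53% of the summed counts of OrsaiCp05 and OrsaiCp06. How many of them belong to this pair was not tested. OrsaiCp03 exceeded OrsaiCp04 by 1.59-fold in library 1 (1.57 to 1.62) and by 1.58-fold in library 2 (1.56 to 1.61). With the read length added, the same ratio was 2.07 and 2.06.

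OrsaiCp01 was set against OrsaiCp05 because the assignment makes them the paired reaction centre genes and because their lengths are equal, so that their ratio does not depend on length. The ratio was 139 in library 1 (95% interval 137 to 140) and 137 in library 2 (136 to 138). These intervals overlap. OrsaiCp01 to OrsaiCp06 gave 122 (122 to 123) and 129 (128 to 130), which do not overlap. Such intervals cover counting error only, without any spread between libraries, and no molecular identifiers were used.

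The members lay in the upper part of the plastid series. The median FPKM of the 5 was 9723 in library 1, where that of the other 59 OrsaiCp identifiers with an FPKM was 510. In library 2 the medians were 9247 and 501. Those 59 ran from 0.196 to 24772 in library 1 and from 0.156 to 25053 in library 2. The lowest member was OrsaiCp05, and 11 of the 59 lay above it in library 1 and 10 in library 2. The median of the 5 was the value of OrsaiCp04 in each library. With the read length added, OrsaiCp04 was at 4135 in library 1 and 3933 in library 2. The median of the other 59 was not taken on that scale. Some of the 59 share a length with each other. The part of entries with more than a single alignment in their levels was not tested. The members were not picked at random from the series, so the medians are a description.

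**Figure D2:**
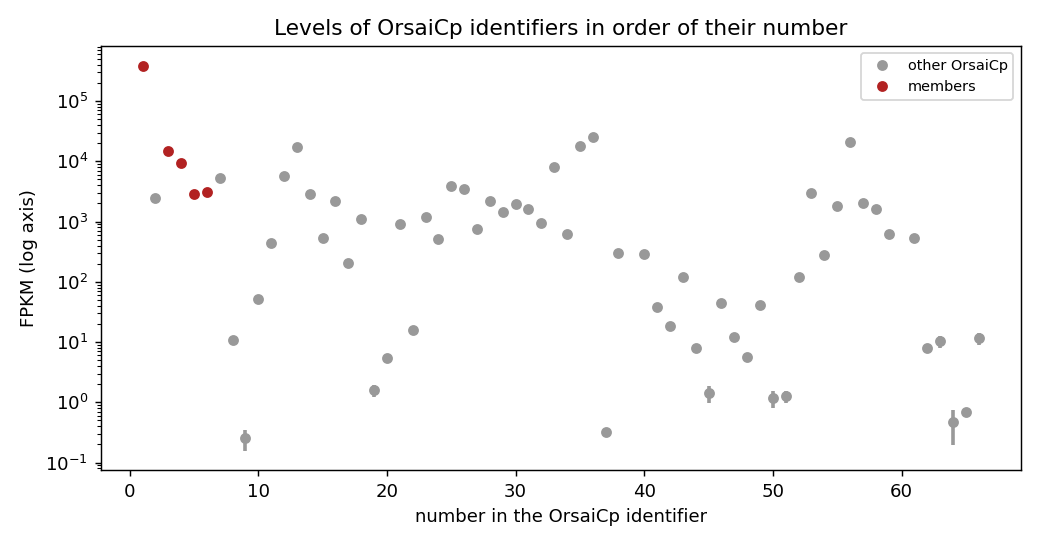
FPKM on a log axis for the 64 OrsaiCp identifiers that have one, in order of the number in the identifier; points are means of both libraries, vertical lines join the 2 libraries, and members are red. The members hold 5 of the first 6 numbers and lie at or above 2819, while the numbers after OrsaiCp07 begin with identifiers at 10.9 and 0.253.

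The identifiers whose numbers adjoin the members were also high. OrsaiCp02, with the length of matK, an intron maturase gene, was counted 67493 and 70770 times and had an FPKM of 2428 and 2451. Per length it stood at 0.877 and 0.854 of OrsaiCp05. OrsaiCp07, with 207 bases and no plastid gene of that length in the table, had an FPKM of 5322 and 5057, 1.70 and 1.66 times OrsaiCp06. The next number, OrsaiCp08, has the length of rpoB, a subunit gene of the plastid RNA polymerase. Its FPKM was 11.4 and 10.5.

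The levels nearest to each member belonged to identifiers of several candidate complexes. OrsaiCp13 was next above OrsaiCp03, with an FPKM of 17744 and 16649, and its length is that of both atpH and psaC. OrsaiCp33, the psbB candidate, was next below OrsaiCp04, with 8512 and 7502. OrsaiCp06 lay between OrsaiCp26, the petA candidate for cytochrome f, at 3485 and 3449, and OrsaiCp53 at 2971 and 2897. OrsaiCp05 lay between OrsaiCp14, the candidate for the ATP synthase gene atpA, at 2879 and 2864, and OrsaiCp02. Of these neighbouring levels, only those of OrsaiCp05 and OrsaiCp14 overlapped between libraries, so the order of that pair was not settled. With 2 libraries, likeness of pattern cannot be measured, and nearness in level is all that these names state.

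Other photosystem II genes were sought by length. Of 15 photosystem II symbols of the list that the reference table holds, 8 have a length that some OrsaiCp identifier has, and these are the 5 members and 3 more. No OrsaiCp length equals that of the other 7, psbH, psbJ, psbL, psbM, psbN, psbT and psbZ, and those genes were not analysed here. OrsaiCp33 has the length of psbB, which encodes the other inner antenna protein. Its FPKM was 8007 ± 714 (SD, n = 2), and per length it was 2.71-fold above OrsaiCp06 in library 1 (95% interval 2.69 to 2.74) and 2.47-fold in library 2 (2.45 to 2.49). OrsaiCp28 and OrsaiCp27 have the lengths of psbE and psbF, which encode the subunits of the cytochrome in the photosystem II core. OrsaiCp28 had an FPKM of 2061 and 2404, or 2233 ± 243, and OrsaiCp27 had 673 and 815, or 744 ± 101 (SD, n = 2). OrsaiCp28 was at 0.744 of OrsaiCp05 per length in library 1 and at 0.838 in library 2. The 8 candidates thus ran from 744 to 388577, with all 5 members above the psbE and psbF candidates and the psbB candidate between OrsaiCp04 and OrsaiCp06.

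Candidates for other plastid complexes gave the setting for these levels. The 2 ATP synthase candidates lay at 2871 and 5721 in mean FPKM, within the range of the members. The single cytochrome complex candidate lay at 3467, and the single photosystem I candidate, psaA by length, at 206. The 7 candidates for the NADH dehydrogenase-like complex ran from 1.59 to 1994 and the 4 RNA polymerase candidates from 0.253 to 51.1, all below every member. These groups hold only identifiers whose length a single plastid symbol has, apart from OrsaiCp01, OrsaiCp04 and OrsaiCp05. Number order admitted those members and was not applied to the other complexes, so the ranges of the complexes are not on equal terms. Listed genes whose length is shared, or is not found among the OrsaiCp lengths, are therefore left out. Among the identifiers left out, OrsaiCp56 and OrsaiCp13 have the length of both atpH and psaC. They lay at 20860 and 17197 in mean FPKM, above every member but OrsaiCp01. OrsaiCp16 and OrsaiCp52, with the length of both ndhF and psaB, lay at 2175 and 119. Entries with more than a single alignment have a summary line of their own, and whether they were also counted for genes was not given. Their part in low or high levels was not tested.

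**Figure D3:**
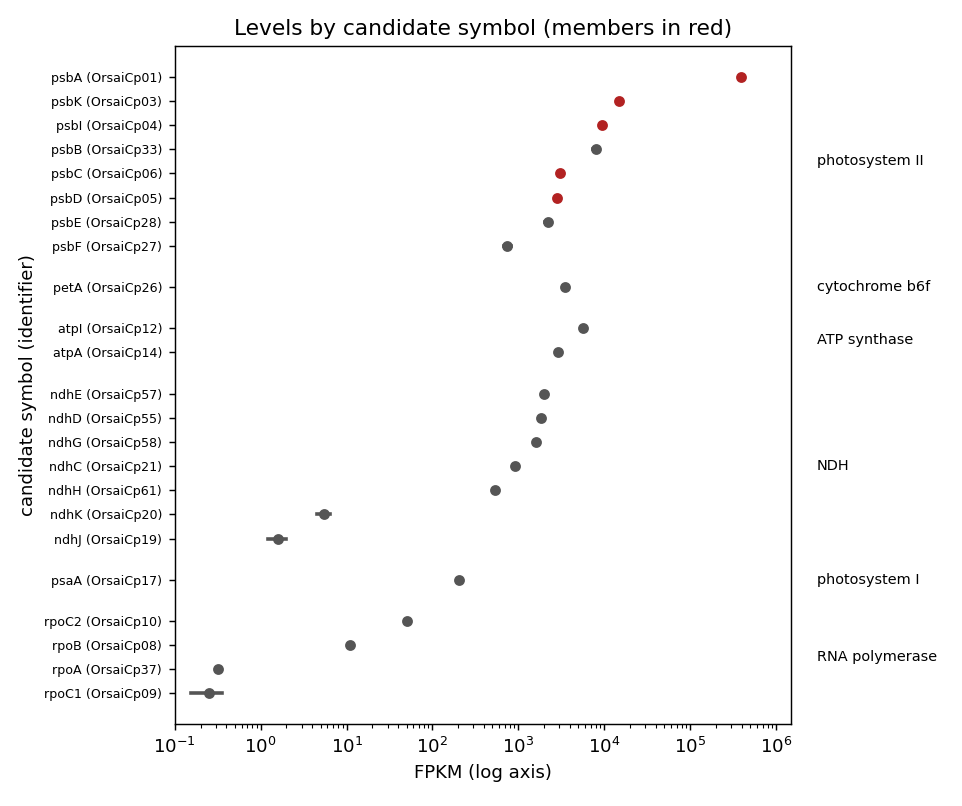
FPKM on a log axis for identifiers grouped by the complex of their candidate symbol; points are means, horizontal lines join the 2 libraries, and members are red. OrsaiCp01 (psbA) is at 388577, the other 4 members lie between 2819 and 15061, and the RNA polymerase candidates reach 51.1 at most. Identifiers of a length that several symbols share are left out, apart from OrsaiCp01, OrsaiCp04 and OrsaiCp05.

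The 2 libraries were compared to see how far the members differed beyond sampling noise. The test was a two-sided exact binomial test of the counts over all identifiers with 10 or more counts, scaled by trimmed mean of M-values (TMM) from edgeR and with Benjamini-Hochberg adjustment. By it 3 of 5 members had an adjusted p under 0.05, against 0.678% of 19770 identifiers tested (0.384% higher in library 2 and 0.293% higher in library 1) and 21.1% of the 57 other OrsaiCp identifiers tested. The test finds smaller differences where counts are higher. Among the 124 identifiers whose mean count was at least 10000, all 5 members included, 38.7% were called. Of the 22 other OrsaiCp identifiers among those 124, 45.5% were called.

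OrsaiCp05 was 1.05-fold higher in library 2 (95% interval 1.04 to 1.07, log2 ratio 0.08, adjusted p = 6.89e-16 by the exact binomial test). OrsaiCp01 was 1.042-fold higher in library 2 (1.041 to 1.043, log2 ratio 0.06), with an adjusted p too small for the program to represent. OrsaiCp03 was at 0.962 of its library 1 level in library 2 (0.9504 to 0.974, log2 ratio -0.06, adjusted p = 3.55e-07 by the exact binomial test). OrsaiCp04, at 0.968 (0.949 to 0.988, log2 ratio -0.05), missed the threshold in the exact binomial test (adjusted p = 0.142). OrsaiCp06, at 0.987 (0.978 to 0.997, log2 ratio -0.02), missed it too in the exact binomial test (adjusted p = 0.354). The 2 identifiers of 1062 bases were thus higher in library 2, and the other called member was higher in library 1. The DESeq2 size factors were 1 for both libraries, so that setting compared the counts unscaled. Library 2 had 1.04 times the gene counts of library 1. With those factors OrsaiCp03 was not called (exact binomial test, adjusted p = 0.158) and the ratio of OrsaiCp06 changed sign. With total gene counts all 5 were called.

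The sizes of these differences were set beside those of other identifiers. The common dispersion from edgeR, the spread of libraries left after counting noise, was 3.63% as a coefficient of variation and puts the SD of a log2 ratio of the 2 libraries at 0.07. Before rounding, 1 of 5 members, OrsaiCp05, lay above that SD, as did 19 of the 124 high-count identifiers. The median absolute log2 ratio was 0.0557 over the 5 members and 0.0396 over the 124, whose central 95% of log2 ratios lay between -0.13 and 0.10, and all 5 members lay within that range. The largest member ratio, that of OrsaiCp05, was exceeded in size by 15 of the 124, and that of OrsaiCp01 by 32. The other photosystem II candidates differed more. OrsaiCp33 was at 0.897 in library 2 (0.892 to 0.903), OrsaiCp28 at 1.19 (1.16 to 1.22) and OrsaiCp27 at 1.23 (1.15 to 1.32), all with an adjusted p under 0.05 by the exact binomial test. Libraries of 1 group carry no condition, and in bulk RNA fewer cells of a type cannot be told apart from less RNA per cell.

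**Figure D4:**
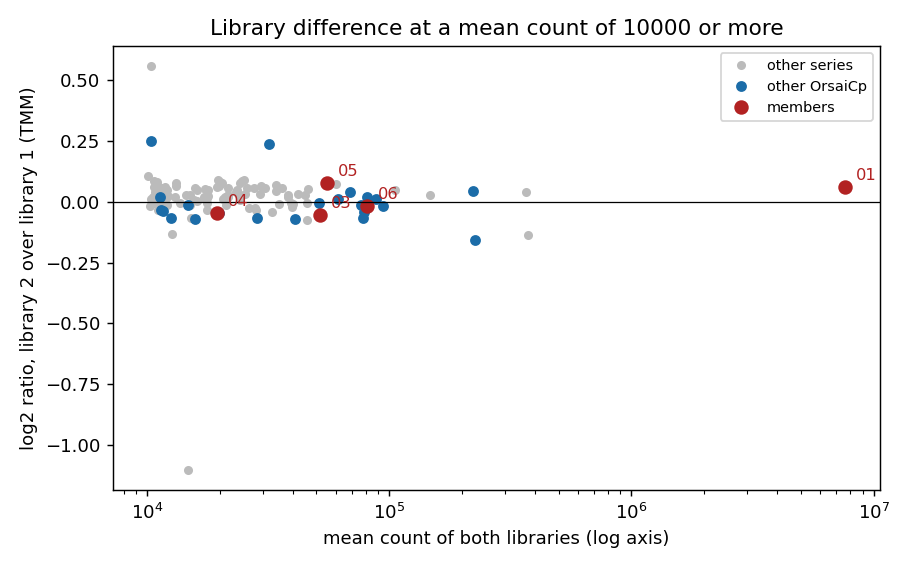
Log2 ratio of library 2 over library 1, scaled by TMM, against the mean count on a log axis for the 124 identifiers whose mean count was at least 10000; each point is an identifier, and members are red with the number of their identifier. OrsaiCp05 and OrsaiCp01 lie above 0, at 0.08 and 0.06, and the other 3 members lie below 0, between -0.06 and -0.02. OrsaiCp06 is above 0 with DESeq2 size factors, which were 1 for both libraries and left the counts unscaled.

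Ratios between members do not depend on the scaling of the libraries. Of the 10 pairs, 7 had intervals that did not overlap between the libraries and 3 had intervals that overlapped. The 3 were OrsaiCp01 with OrsaiCp05, OrsaiCp03 with OrsaiCp04, and OrsaiCp04 with OrsaiCp06. The 10 pairs reuse the same 5 identifiers, and the intervals cover counting error only. Pairs of other identifiers were not counted in this way, so whether these counts are particular to the members was not tested. The ratio of OrsaiCp03 to OrsaiCp05 changed most, from 5.59 in library 1 (95% interval 5.53 to 5.66) to 5.10 in library 2 (5.04 to 5.16). A single pair of libraries gives 1 difference for each ratio, so no co-variation among members can be stated from it.

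The abundance of OrsaiCp01 also entered the scale of every other value. The 4 other members held 1.14% of the gene counts of library 1, with an exact 95% interval (Clopper-Pearson) from 1.13% to 1.14%. In library 2 they held 1.11% (1.11% to 1.12%). Of the OrsaiCp counts outside OrsaiCp01 they held 12.7% (12.6% to 12.7%) and 12.8% (12.8% to 12.9%). OrsaiCp06 alone held 4.98% of those counts in both libraries. With OrsaiCp01 left out of the total, the mean FPKM became 25638 ± 731 for OrsaiCp03 and 16147 ± 386 for OrsaiCp04 (SD, n = 2). It became 5258 ± 53.5 for OrsaiCp06 and 4801 ± 176 for OrsaiCp05 (SD, n = 2).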

How the data were processed

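Total RNA of 2 rice libraries was depleted of ribosomal RNA from 2 µg with a strand-marking kit and read as 150-base pairs, per the labels' protocols. Trimmomatic, HISAT2 and HTSeq are named in the submitters' processing notes. For versions, genome build, annotation and strand setting the entry is the same, not given in the sources used here. Each deposited count is a raw whole number per gene. The deposited FPKM values, so named per the file headers, are counts per kilobase of length and per 1000000 gene counts, and the values of OrsaiCp identifiers were recomputed here to a relative 1.33e-05. The upper-quartile column was not used. All 64 OrsaiCp lengths are multiples of 3, and 54 of them equal a plastid protein-coding length of the reference table. They were therefore taken as coding lengths, which the sources used here do not state.

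Library 1 held 18096722 gene counts and library 2 held 18799901, so 3 counts, the limit that a count of 0 allows, are 0.166 and 0.160 CPM. The counting summary lines were left out of totals and made up the rest of 31722418 and 30873154 entries. Library ratios used a pseudocount of 0.5, TMM factors of 1.009 and 0.991, and an exact binomial test on identifiers with 10 or more counts, checked on simulated data that held sampling noise only. A quasi-likelihood fit of library 1 against library 2 has no residual degrees of freedom. DESeq2 size factors (1 for both libraries), other totals, filters, lengths and single libraries were alternatives. Shares and ratios carry 95% exact intervals. Named identifiers were the members, those adjoining them in number or level, the highest other OrsaiCp identifier and photosystem II candidates by length. The members, lists and tests were chosen with earlier results of these data known. Calculations ran in Python 3.11.15 with scipy 1.17.1, pandas 2.3.3, numpy 2.4.6 and matplotlib 3.10.9, and scaling factors came from edgeR 4.0.16 and DESeq2 1.42.0 under R 4.3.3.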

Additional observations from a re-analysis of the deposited data

Results flagged for a closer look

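Signals outside the FPKM comparisons were far above 3 counts, the limit of a 0, and their part in the members' levels was not tested. Entries with more than a single alignment numbered 8799979 in library 1 and 7964006 in library 2, 119% and 101% of the count of OrsaiCp01. Entries without a feature numbered 2561964 and 2455026, 34.7% and 31.3% of the count of OrsaiCp01. Ambiguous entries numbered 10460 and 10430. OrsaiCp60, which has no FPKM, had 28780 and 28030 counts, between the counts of OrsaiCp04 and OrsaiCp03 in each library.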

How the results depend on the processing

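No paired analysis was possible because there is only 1 group of samples. Without 1 library the between-library test cannot be run. The count of called identifiers was 113 to 189 over 6 alternatives, against 134. The count of called members was 3, with 2 under DESeq2 size factors and 5 under total gene counts, MH totals and OrsaiCp totals. OrsaiCp06 changed sign with DESeq2 size factors, to a log2 ratio of 0.0106 (adjusted p = 0.763 by the exact binomial test, and 1.63e-18 to 0.763 over its alternatives). Those size factors were 1 for both libraries, so this is a uniform shift from leaving the counts unscaled. Of 40 alternatives of member ratios, 32 kept direction and call.

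With 150 bases added to each length, the mean FPKM was 340485, 8337, 4034, 2470 and 2794 for OrsaiCp01, OrsaiCp03, OrsaiCp04, OrsaiCp05 and OrsaiCp06. Scaled without OrsaiCp01 it was 661705, 25638, 16147, 4801 and 5258. The ratio of OrsaiCp03 to OrsaiCp04 rose to 2.07 with the longer lengths. OrsaiCp04 ranked 9 and OrsaiCp05 ranked 15 on those lengths. By counts, among 65, OrsaiCp03 ranked 14, OrsaiCp04 ranked 20, OrsaiCp05 ranked 13 and OrsaiCp06 ranked 6. With a single library, OrsaiCp05 ranked 15 to 16 and the other ranks stayed. The share of the 5 members was 42.4% of gene counts (41.9% to 42.9% with a single library) and 25.01% of gene counts plus summary lines. Counting error is small at these depths, and the number of libraries limits the precision.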
